A study of Mus musculus with 24 samples.

Results

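RACVECs, the amniotic cells converted with 3 Ets factors, were set against Akt-LECs, the cultured adult lung ECs that served as the endothelial reference, to describe which endothelial genes the conversion had not brought to the level of the reference and which mesenchymal genes the converted cells still carried. All 3 RACVEC and all 3 Akt-LEC libraries entered, 6 of 24 RNA libraries of the series. Genes were tested where the mean over these 6 libraries reached an FPKM of 1, which 13624 did. RACVECs came from mouse amniotic cells (MACs) of C57BL/6J embryos of mixed sex at E11.5–E13.5. The methods name wild type or tdTomato reporter mice as the source and do not say which gave these libraries. For conversion the cells had been given lentiviruses with mouse Etv2, Erg and Fli1 behind the PGK promoter. They were grown in EC medium with a TGFβ receptor inhibitor. VEGF-A was added to this medium during the conversion, which is not stated for Akt-LECs. RACVECs carried no Akt transgene, and the methods state no purification of them. Akt-LECs were ECs of adult mouse lung taken with anti-CD31 beads and plated in EC medium, which the methods describe with the same inhibitor. They were given a lentivirus with myristoylated Akt1, a constitutively active kinase that keeps ECs alive in culture, and later purified by VEcad and CD31. The MACs given beside them were not transduced. The age of the cells, the organ, the Ets transgenes, the Akt transgene, the stated VEGF-A and the purification therefore differ between the groups at once. Their parts in any difference cannot be told apart. Sex-linked transcripts also varied between the libraries, as given at the end. The header of RACVEC 3 names Flk1, GFP+ and a day that the other RACVEC headers do not have. Whether its cells were selected by these markers is not stated. The methods of the study take a separately isolated culture of amniotic cells as a biological replicate, and its plots of these FPKM call each library an isolate.

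An EC is held in its state by a set of transcription factors, in which Ets factors (Erg, Fli1, Etv2), SoxF factors (Sox7, Sox17, Sox18) and the bHLH proteins Tal1 and Lyl1 with their partner Lmo2 bind near the same genes. These genes encode the junctions between ECs, the receptors for VEGF, angiopoietin and Notch ligands, and the proteins that keep blood from clotting and set the tone of the vessel. Amniotic mesenchyme instead secretes collagens and proteoglycans, carries PDGF receptors and expresses Twist, Snai and Prrx factors. Values are FPKM, fragments per kilobase of transcript scaled to the library, always given in the order of libraries 1, 2 and 3. A log2 difference is the mean of log2(FPKM + 1) in RACVECs minus that in Akt-LECs with its standard error, n = 3 and 3, and understates the change of genes of low FPKM. A gene was called where limma gave a Benjamini-Hochberg adjusted p below 0.05 over all tested genes and the log2 difference lay past 1 or -1. These are bulk samples, in which fewer cells of a type and less RNA per cell cannot be told apart.

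The libraries were first checked against their labels. Cdh5, which encodes VE-cadherin, had an FPKM of 863, 1531 and 1887 in RACVECs, 1397, 2074 and 3486 in Akt-LECs and 0.82, 1.87 and 1.27 in MACs, so both compared groups held a transcript that MACs nearly lacked. Akt-LEC 1 differed from the other 2 Akt-LEC libraries in markers of other cell types and in further lists. Its summed FPKM over the endothelial lists described below was 40223, against 91355 and 74721 in Akt-LECs 2 and 3. Over interferon-induced genes it was 942, against 9858 and 6988. Correlations of log2(FPKM + 1) were taken over the 13624 tested genes, which are not independent replicates. Akt-LEC 1 correlated at 0.791 with Akt-LEC 2, at 0.840 with Akt-LEC 3 and at 0.841 to 0.849 with the 3 RACVEC libraries. Akt-LEC 2 had the lowest values with RACVECs 1, 2 and 3, at 0.761, 0.814 and 0.771. RACVEC 2 correlated as well with Akt-LEC 3 (0.885) as with RACVEC 1 (0.884). In Akt-LEC 1 the defining mesenchymal genes Col1a1 (1065, 0 and 1.44 in Akt-LECs) and Pdgfra (343, 0.39 and 1.66) were high, and so was Acta2 (810.2, 4.97 and 52.7). It also held all 9 macrophage markers measured, whose summed FPKM was 1955 in Akt-LEC 1, 80.2 in Akt-LEC 2, 23.4 in Akt-LEC 3 and between 171 and 741 in RACVECs. Of these, Ptprc, Adgre1 and Tyrobp were listed at 0 in Akt-LEC 2, Akt-LEC 3 and all RACVECs, and most of the RACVEC sum came from Cd14 and Lyz2. Simple epithelial markers summed to 226 in Akt-LEC 1 with 9 of 10 above 0, to 6.75 and 2.56 in Akt-LECs 2 and 3, and to between 131 and 1178 in RACVECs, where Krt19 alone held nearly all of it and Krt8 was listed at 0. Lung epithelial markers summed to at most 61.8, with Sftpc and Sftpb listed at 0 in all 6 libraries. Blood cell markers summed to between 714 and 926 in Akt-LECs and between 104 and 336 in RACVECs, mostly in Itgb3 and Pf4, with Hba-a1, Cd3e and Cd79a listed at 0. The study lists Itgb3 among genes of tumour ECs, so this sum is not particular to blood cells. Medians and the counts of higher members in the mesenchymal lists are therefore given with and without Akt-LEC 1, and the part of these markers in the results was not tested.

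Because the transduced factors were Ets proteins, the promoters of endothelial genes that RACVECs did and did not bring to the Akt-LEC level are shown first. RefSeq promoters (GRCm38.p6, 250 bases before to 50 after the start) were found for 66 of the 101 endothelial genes in the lists. Only genes with such a promoter could be shown, and others, Cdh5 among them, were left out. The 3 of them called lower in RACVECs come first. They are followed by the 3 of them within 1 log2 unit of Akt-LECs that stood highest above MACs. Each is in 5′ to 3′ order on the plus strand, with capitals for the Ets words CGGAAG and AGGAAG and the Sox words AACAAT and ACAAAG on either strand.
Tal1, called lower, chr4:115056176-115056475: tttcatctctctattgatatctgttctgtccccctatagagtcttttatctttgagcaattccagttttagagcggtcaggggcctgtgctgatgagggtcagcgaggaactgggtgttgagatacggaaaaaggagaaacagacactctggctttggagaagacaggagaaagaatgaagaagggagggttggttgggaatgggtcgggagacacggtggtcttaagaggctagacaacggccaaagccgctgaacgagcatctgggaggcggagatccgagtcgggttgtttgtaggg
Lyl1, called lower, chr8:84701207-84701506: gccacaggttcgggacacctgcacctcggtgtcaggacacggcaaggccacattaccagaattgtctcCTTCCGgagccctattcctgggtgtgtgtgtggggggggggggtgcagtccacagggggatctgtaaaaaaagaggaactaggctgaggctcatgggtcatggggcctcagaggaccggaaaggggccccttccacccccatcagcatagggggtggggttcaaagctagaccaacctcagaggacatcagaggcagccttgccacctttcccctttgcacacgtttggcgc
Emcn, called lower, chr3:137340828-137341127: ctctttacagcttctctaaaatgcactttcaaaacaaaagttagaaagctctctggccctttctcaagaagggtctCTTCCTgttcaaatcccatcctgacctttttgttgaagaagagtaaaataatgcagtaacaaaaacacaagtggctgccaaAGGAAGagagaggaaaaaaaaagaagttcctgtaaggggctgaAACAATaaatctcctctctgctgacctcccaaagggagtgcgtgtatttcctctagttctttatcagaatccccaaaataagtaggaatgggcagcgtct
Adgrf5, within 1 log2 unit, chr17:43360181-43360480: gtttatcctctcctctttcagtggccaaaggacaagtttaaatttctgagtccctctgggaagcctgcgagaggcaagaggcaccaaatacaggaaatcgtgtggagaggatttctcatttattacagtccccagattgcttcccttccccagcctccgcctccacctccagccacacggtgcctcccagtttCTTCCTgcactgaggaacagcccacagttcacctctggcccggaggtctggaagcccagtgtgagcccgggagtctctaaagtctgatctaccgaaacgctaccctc
Notch4, within 1 log2 unit, chr17:34564045-34564344: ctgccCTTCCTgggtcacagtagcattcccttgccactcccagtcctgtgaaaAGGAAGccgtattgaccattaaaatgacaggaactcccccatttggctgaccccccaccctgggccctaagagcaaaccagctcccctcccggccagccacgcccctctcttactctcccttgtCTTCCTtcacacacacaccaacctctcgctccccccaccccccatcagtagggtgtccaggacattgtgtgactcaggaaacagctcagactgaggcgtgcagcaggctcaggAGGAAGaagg
Cd34, within 1 log2 unit, chr1:194938571-194938870: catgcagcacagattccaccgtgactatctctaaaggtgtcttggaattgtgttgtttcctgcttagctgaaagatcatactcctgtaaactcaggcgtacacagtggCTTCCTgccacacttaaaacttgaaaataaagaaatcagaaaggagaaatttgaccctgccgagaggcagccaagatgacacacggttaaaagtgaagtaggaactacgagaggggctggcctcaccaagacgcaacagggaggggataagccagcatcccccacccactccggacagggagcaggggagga
For Tal1 and Adgrf5 the first of 2 promoters is shown. An Ets word stood in 20 of the 38 endothelial genes with a promoter and a log2 difference below -1, in 11 of the 25 within 1 log2 unit, and in 49.8% of all 27025 genes with a promoter. A Sox word stood in 11 of the 38, in 2 of the 25 and in 30% of all genes. Over all 32851 promoters the shares were 46.5% for an Ets word and 27.0% for a Sox word. A word in this window is a match of letters, not a binding site.

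Over all tested genes, 7 (0.0514%) were called higher and 37 (0.272%) lower in RACVECs. Without adjustment, 551 (4.04%) higher and 614 (4.51%) lower genes had a p below 0.05 past the same fold. The size of the differences was balanced, with 1344 genes (9.86%) above 1 and 1371 (10.1%) below -1 and a median of 0.02 over all genes. The number of calls rested on single libraries. Without Akt-LEC 2 it was 2 higher and 3 lower, without RACVEC 3 it was 1 and 3, without RACVEC 1 it was 2 and 11, without RACVEC 2 it was 20 and 51, and without Akt-LEC 3 it was 11 and 69. Without Akt-LEC 1, 16 (0.12%) were called higher and 43 (0.322%) lower of 13366 genes tested. The spread was estimated from all 24 libraries, so the calls also depended on groups outside the comparison. Of the 22 called genes named in this report, 10 were called again without the libraries of directly purified liver ECs (LSEC). That fit was added after seeing the data.

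The transduced genes came first in the comparison. Etv2, the pioneer of the endothelial lineage in the embryo, was listed at 859.9, 301 and 659 in RACVECs and at 0, 0 and 0 in Akt-LECs and in MACs, and was called higher (adjusted p = 0.00888). Fli1 had 178, 229 and 257 in RACVECs, 181, 255 and 426 in Akt-LECs and 0, 1.61 and 0.65 in MACs, with overlapping libraries and a log2 difference of -0.30 ± 0.73 (adjusted p = 0.897). Erg, by contrast, reached only 3.91, 13.8 and 0.90 in RACVECs against 176, 427 and 442 in Akt-LECs, with every RACVEC library below every Akt-LEC library. Its log2 difference of -5.96 ± 1.31 missed the threshold (adjusted p = 0.0576). The values add up reads of the endogenous gene and any reads of the vector that were counted for it, so that transgene and gene cannot be told apart. Akt1, transduced in Akt-LECs alone, had 607, 694 and 644 in RACVECs and 798, 1124 and 1266 in Akt-LECs, without overlap (log2 difference -0.69 ± 0.23, adjusted p = 0.206). Sox17 was not transduced in either group and is described with its family below.

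Besides Etv2, the genes called higher in RACVECs were the following 6, and the libraries of both groups did not overlap in any of them. Crp, the acute-phase protein C-reactive protein, had 41.8, 34.8 and 12.7 in RACVECs and 0, 0.54 and 0 in Akt-LECs, a log2 difference of 4.58 ± 0.56 (adjusted p = 0.00104), and was listed at 0 in MACs. It was called again without each of the 6 libraries in turn. Tbx15, a T-box factor of embryonic mesenchyme, had 96.6, 154 and 57.2 against 2.54, 0.30 and 4.11 (5.06 ± 1.06, adjusted p = 0.0444), and 135, 85.8 and 5.97 in MACs. Ero1a, an oxidase for disulfide bonds in the endoplasmic reticulum, had 3262, 1073 and 2953 against 192, 266 and 321 (3.10 ± 0.65, adjusted p = 0.0444). Ero1a, Crp and Fndc3c1 were higher in every RACVEC than in every MAC as well. Fndc3c1 (5.62), Maged2 (2.69) and Atxn10 (1.14), named by their log2 differences, completed the list. The calls of these genes other than Crp were each lost without Akt-LEC 2 and without RACVEC 3. Of the 6 libraries left out in turn, Etv2 kept its call in 4 and Fndc3c1 in 3, while Tbx15, Ero1a and Atxn10 kept it in 1 and Maged2 in 0.

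The 10 genes called lower with the largest difference included 3 members of the endothelial lists, Lyve1, Lyl1 and Emcn. Mall, a membrane protein of the MAL family, had 1.21, 0.74 and 0 in RACVECs and 67.8, 476 and 185 in Akt-LECs (-6.86 ± 0.70, adjusted p = 0.000109). Gimap1, a GTPase best known from lymphocytes, had 0, 2.73 and 1.29 against 72, 194 and 278 (-6.27 ± 0.89, adjusted p = 0.00428). Both were called again without each library in turn. Ccm2l, a relative of the cavernous malformation protein CCM2, had 0, 4.04 and 0 against 22.4, 261 and 177 (-5.91 ± 1.15, adjusted p = 0.03), and its call was lost without Akt-LEC 2, Akt-LEC 3, RACVEC 1 or RACVEC 3. Fam174b (-6.64), Klhl4 (-6.25), the adhesion receptor Adgrg3 (-6.16) and Fxyd6 (-5.64), of a family that regulates the sodium pump, are given by their log2 differences. Klhl4 and Adgrg3 kept their calls in 4 of 6 cases with 1 library left out, Fxyd6 in 3 and Fam174b in 1. All 7 were at or near 0 in MACs, the highest MAC value being 6.11 in Fxyd6, and the highest RACVEC value of the 7 was 6.83, in Adgrg3.

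**Figure D1:**
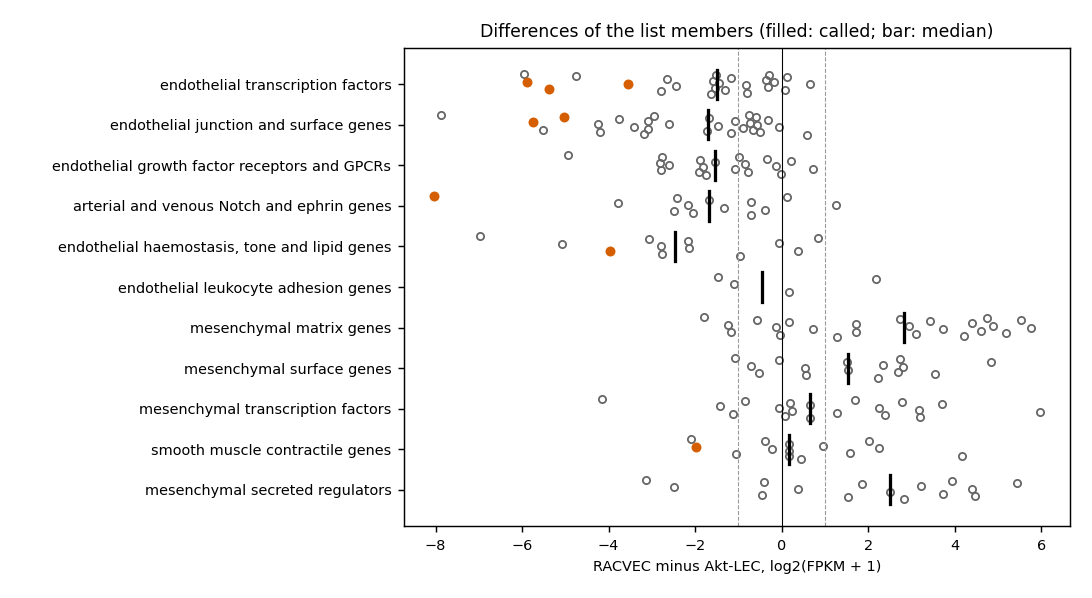
Log2 difference between RACVECs and Akt-LECs for every tested member of 6 endothelial and 5 mesenchymal lists (x axis, log2(FPKM + 1) units; 1 circle per gene, filled where called, bars for list medians, dashed lines at -1 and 1). Endothelial medians lie between -2.47 and -0.46 and mesenchymal medians between 0.17 and 2.84, and the 8 called members are all on the lower side.

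Of 101 endothelial genes in 6 lists, 100 passed the filter, and Hey2 did not. Of the 100, 7 were called lower and 0 higher, 44 were lower and 0 higher at an unadjusted p below 0.05 past the fold, and 62 had a log2 difference below -1. In 36 of them every RACVEC library lay below every Akt-LEC library, and in 1, Icam1, every RACVEC library lay above. The share of all tested genes without overlap was 8.31% in the lower and 8.18% in the higher direction. Of all tested genes, 0.272% were called lower, 4.51% were lower at an unadjusted p past the fold and 10.1% lay below -1. The counts of the 6 lists below are to be read beside these shares. The median over the 100 was -1.53 in place of 0.02 over all genes, and it was the same without the 3 members whose RACVEC libraries were all listed at 0. The number of endothelial calls was 7 without Akt-LEC 1, 1 without Akt-LEC 2, 4 without Akt-LEC 3, 3 without RACVEC 1, 9 without RACVEC 2 and 1 without RACVEC 3, whereas the median stayed between -1.71 and -1.27.

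Endothelial transcription factors ranged from members listed at 0 in all RACVECs to members that overlapped with Akt-LECs. Of 24 tested, 3 were called lower, 15 had a log2 difference below -1 and the other 9 lay within 1, with a median of -1.48 and a range from -5.96 to 0.65. Sox17 (chr1:4481009-4486494, mm9), the SoxF factor of arterial ECs, was listed at 0, 0 and 0 in RACVECs, 24.5, 42.2 and 64 in Akt-LECs and 0, 0 and 0 in MACs and was called lower (adjusted p = 0.0441). Lyl1 (chr8:87225356-87228614) was likewise listed at 0, 0 and 0 in RACVECs and at 15.3, 80.1 and 152 in Akt-LECs (adjusted p = 0.0444). Neither gene was above 0 in any RACVEC or MAC library, and no fold is given against such a group. Tal1 (chr4:114729031-114744360), the bHLH relative of Lyl1, had 5.5, 2.71 and 8.77 in RACVECs against 41.4, 105 and 84.8 in Akt-LECs, a log2 difference of -3.56 ± 0.71 (adjusted p = 0.0342), and was listed at 0 in MACs. These 3 calls rested on single libraries, since Lyl1 and Tal1 kept theirs without Akt-LEC 1 and lost it without any other of the 6 libraries, and Sox17 lost its call without any of the 6. Prox1, the regulator of lymphatic identity, had 1.44, 0 and 0.80 in RACVECs and 111, 433 and 0.79 in Akt-LECs (-4.76 ± 1.45, adjusted p = 0.17), so that Akt-LEC 3 was as low as RACVECs.

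The other SoxF factors were present in RACVECs. Sox18 had 289.7, 1175 and 329.8 in RACVECs, 395, 2218 and 725 in Akt-LECs and 0, 0 and 1.18 in MACs (-0.83 ± 0.68). Sox7 had 169.8, 284 and 246, 127, 221 and 367 and 35.2, 0 and 27.8 (0.07 ± 0.95). Both overlapped between RACVECs and Akt-LECs, so the 3 related factors were far apart in how near they came to the reference. Fli1, Foxo1 (0.13), a forkhead factor that restrains EC growth, Klf2 (-0.17), which responds to shear stress, Klf4 (0.65), Epas1 (-0.31), Nr2f2 (-0.37), a factor of veins, and Elk3 (-0.79) were the other members within 1 log2 unit. Intermediate members were Ets1 with 96.6, 67 and 126 against 215, 234 and 250.0 (-1.31 ± 0.54, adjusted p = 0.321) and Hhex with 72.3, 88.4 and 36.4 against 155, 138 and 231 (-1.45 ± 0.86, adjusted p = 0.49), neither of which overlapped. Hhex was 4.96, 0 and 0 in MACs and Ets1 75.8, 59.5 and 113, so RACVECs stood above MACs in Hhex and near them in Ets1.

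**Figure D2:**
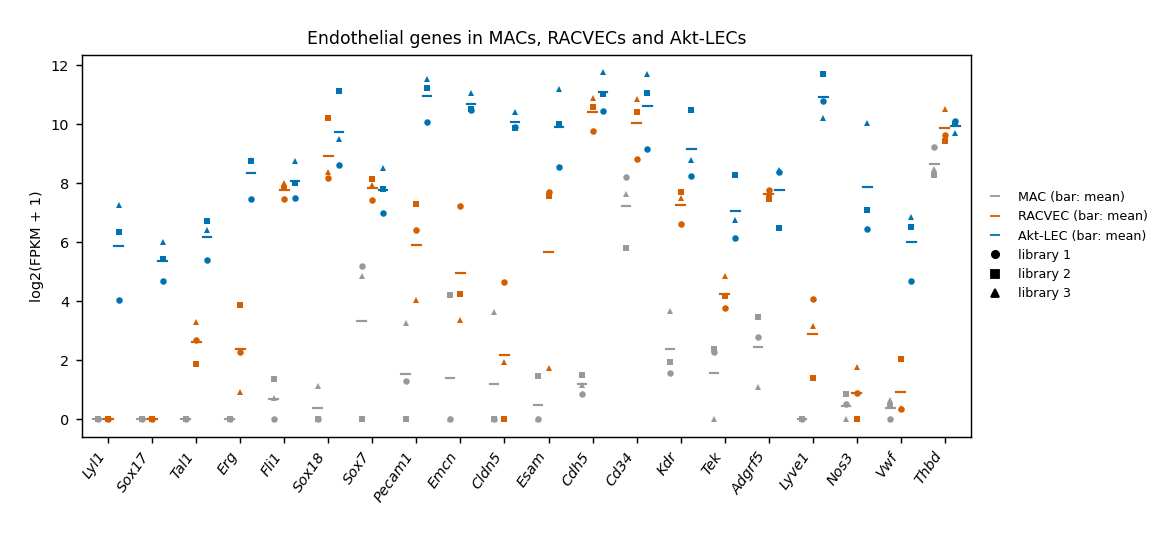
Level of 20 endothelial genes (y axis, log2(FPKM + 1)) in each MAC (grey), RACVEC (orange) and Akt-LEC (blue) library, with symbols for libraries 1 to 3 and bars for group means. Lyl1 and Sox17 lie at 0 in all RACVECs, Pecam1, Emcn and Lyve1 lie below all Akt-LEC libraries, and Fli1, Sox7, Cdh5, Adgrf5 and Thbd overlap with them.

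Junction and surface genes ranged from a log2 difference of -7.87 in Cldn5 to members that overlapped with Akt-LECs. All 28 were tested, of which 2 were called lower, 18 had a log2 difference below -1 and 10 lay within 1, and the median was -1.70. Pecam1 (chr11:106515531-106611942), which encodes CD31, had 84.1, 155 and 15.3 in RACVECs, 1077, 2417 and 2984 in Akt-LECs and 1.47, 0 and 8.64 in MACs. The lowest Akt-LEC was thus far above the highest RACVEC, with a log2 difference of -5.04 ± 0.94 (adjusted p = 0.0222). Akt-LECs were purified with antibodies to CD31 and VEcad and RACVECs are not stated to have been, and the part of this in the level of Pecam1 was not tested. Emcn (chr3:137004031-137095149), the endomucin of the apical surface, had 149, 18.2 and 9.27 against 1439, 1472 and 2123 (-5.74 ± 1.00, adjusted p = 0.0156), and its call was lost without Akt-LEC 2 or RACVEC 3. The call of Pecam1 was lost without Akt-LEC 2, Akt-LEC 3, RACVEC 1 or RACVEC 3.

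Cldn5, the claudin of endothelial tight junctions, had 23.9, 0 and 2.85 in RACVECs and 956, 927 and 1369 in Akt-LECs, the largest difference of the list at -7.87 ± 1.84 (adjusted p = 0.0791). Jam2, a junctional adhesion molecule, had 1.51, 1.43 and 8.51 against 54.6, 174 and 563 and was higher in MACs (12.4, 35.2 and 63.9) than in RACVECs (-5.51 ± 2.10, adjusted p = 0.281). Neither was called, although in both every RACVEC lay below every Akt-LEC. Esam, another adhesion molecule of these junctions, had 209.6, 188 and 2.36 against 372, 1037 and 2323 (-4.24 ± 1.09, adjusted p = 0.119), and RACVEC 3 alone was near the 0, 1.74 and 0 of MACs. RACVEC 3 also had the lowest value of the 3 in Pecam1, Emcn, Plvap, Rasip1, Mmrn2, Eng and Cd93.

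VE-cadherin is the adhesion molecule of the same junctions, and its transcript did not show such a gap. Cdh5 was 863, 1531 and 1887 in RACVECs and 1397, 2074 and 3486 in Akt-LECs, with 2 of 3 RACVECs within the range of Akt-LECs (-0.67 ± 0.48, adjusted p = 0.587). Cd34, a sialomucin of ECs and progenitors, had 455, 1366 and 1845 against 570.3, 2123 and 3287 (-0.60 ± 0.92). Cd93 had 1076, 1113 and 95.1 against 734, 226 and 1346 (-0.32 ± 1.06), and Podxl, Cav1, Col4a1, Col4a2, F11r, Cgnl1 and Esm1 completed the members within 1 log2 unit. Of these, Esm1 varied most, with 21, 464 and 1.45 in RACVECs and 822, 0.70 and 4.25 in Akt-LECs.

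Of 19 growth factor receptors, ligands and G-protein coupled receptors, limma called 0 in either direction, 6 were lower and 0 higher at an unadjusted p below 0.05, and the ratio criterion of the study, computed here, took 1 as lower. A log2 difference below -1 was found for 11 and a difference within 1 for 8, with a median of -1.54. Adgrl4, an adhesion receptor of sprouting ECs, had 1.59, 58.2 and 0.37 in RACVECs and 251, 205 and 119 in Akt-LECs (-4.95 ± 1.92, adjusted p = 0.285), with RACVEC 2 well above the other RACVECs. Tek, the receptor of angiopoietins, had 12.5, 17.1 and 27.9 against 70.1, 307 and 107 (-2.80 ± 1.01, adjusted p = 0.249). Kdr, the main VEGF receptor, had 97.1, 206 and 179 against 303, 1429.9 and 441 and 1.99, 2.84 and 11.8 in MACs (-1.91 ± 0.62, adjusted p = 0.198). In these 3 receptors the groups did not overlap, and Kdr and Tek were nevertheless higher in every RACVEC than in every MAC. Ednrb, the endothelin B receptor, had 629, 3.39 and 139 against 161, 1614 and 522 (-2.82 ± 1.63), which overlapped. The members that did not follow were Adgrf5 (218, 174 and 204 against 333, 87.8 and 348, -0.13 ± 0.53), Bmpr2 (-0.01), Nrp1 (0.22), Aplnr (0.73), the apelin receptor, its ligand Apln (-0.35), Flt1 (-0.84), Nrp2 (-0.78) and Vegfc (-0.98).

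Among 13 genes of Notch and ephrin signalling and of arterial, venous and lymphatic identity, 1 was called lower, 8 had a log2 difference below -1, 4 lay within 1 and 1 lay above 1, with a median of -1.69. Lyve1 (chr7:117994121-118006467), the hyaluronan receptor of lymphatic and some other ECs, had 16, 1.62 and 7.97 in RACVECs and 1772, 3350.3 and 1192 in Akt-LECs, the largest difference of all tested genes in the lower direction (-8.03 ± 1.14, adjusted p = 0.00428). It was called again without each library in turn. Gja5, the arterial connexin 40, had 1.18, 21.1 and 0.63 against 5.26, 97.6 and 331 (-3.78 ± 1.19, adjusted p = 0.181). Gja4, connexin 37, had 1.75, 10.2 and 0 against 1.28, 206 and 10.8 (-2.50 ± 1.16, adjusted p = 0.385). Both connexins overlapped between the groups, with Akt-LEC 1 at the low end of its group. Of the Notch ligands, Dll4 had 25, 21.2 and 4.62 against 112, 31.5 and 79.8 (-2.17 ± 0.98, adjusted p = 0.373) and did not overlap. The receptors Notch4 (42.8, 232 and 34.6 against 92.9, 35.9 and 229) and Notch1 (59.1, 115 and 84.4 against 129, 117 and 168) lay within 1 log2 unit, as did the ligand Jag1 (-0.70) and the guidance receptor Unc5b (0.13). Pdpn, podoplanin of lymphatic ECs and of mesenchyme, had 481, 37.4 and 343 against 1035, 175 and 1.56 (1.26 ± 2.03), so that Akt-LECs 1 and 3 lay on either side of RACVECs.

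The 12 genes of haemostasis, vessel tone and lipid handling had the lowest median of the 6 lists, -2.47, with 1 called lower, 8 below -1 and 7 without overlap. Gpihbp1 (chr15:75427088-75428642), which carries lipoprotein lipase across capillary ECs, had 15.8, 3.76 and 2.56 in RACVECs against 85.6, 106 and 118 in Akt-LECs (-3.97 ± 0.76, adjusted p = 0.0273). Its call was lost without Akt-LEC 2, Akt-LEC 3, RACVEC 2 or RACVEC 3. Nos3, the endothelial nitric oxide synthase, had 0.87, 0 and 2.46 against 87.1, 136 and 1053 (-6.97 ± 1.71, adjusted p = 0.1). Vwf, von Willebrand factor, had 0.28, 3.17 and 0.30 against 24.7, 89.8 and 115 (-5.08 ± 1.62, adjusted p = 0.191). Both were nearly as low in RACVECs as in MACs, which had 0.44, 0.80 and 0 for Nos3 and 0, 0.38 and 0.59 for Vwf. Tfpi, the inhibitor of the tissue factor pathway, had 67.4, 62.5 and 25.5 against 232, 814 and 359 (-3.07 ± 0.90, adjusted p = 0.161), and the protein C receptor Procr had 179, 301 and 356 against 698, 1631 and 5411 (-2.77 ± 0.78, adjusted p = 0.152). Thbd, thrombomodulin, which acts with Procr on protein C, did not follow, with 796, 686 and 1473 in RACVECs and 1109.8, 1025 and 822 in Akt-LECs (-0.07 ± 0.71). Fabp4 (0.83), Cd36 (0.37) and Ece1 (-0.96) were the others within 1 log2 unit. The 4 leukocyte adhesion genes had 0 calls with limma in either direction and 0 at an unadjusted p below 0.05, while the ratio criterion took Icam1 as higher. Icam1 had 681, 973 and 559 in RACVECs against 246, 428 and 37.7 in Akt-LECs without overlap (2.17 ± 1.63, adjusted p = 0.607), Selp, P-selectin, had a difference of -1.48, Sele one of -1.10 and Vcam1 one of 0.17.

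Of 92 mesenchymal genes in 5 lists, 87 passed the filter. Limma called 0 of them higher and 1, Smtn, lower. At an unadjusted p below 0.05 past the fold 16 were higher and 3 lower, and the ratio criterion took 5 as higher (Ddr2, Snai2, Tbx18, Twist1 and Twist2) and 1 as lower. A log2 difference above 1 was found for 48 of the 87, and 12 lay below -1. Of all tested genes, 9.86% lay above 1 and 10.1% below -1, and 4.04% were higher and 4.51% lower at an unadjusted p past the fold. The counts of the 5 lists below are to be read beside these shares. Every RACVEC library was above every Akt-LEC library in 11 of the 87, against 8.18% of all genes. The median was 1.54. Of the 6 libraries left out in turn, Akt-LEC 1 moved the median most. Without it the median was 3.03, every RACVEC lay above both other Akt-LECs in 38 of 84 members in place of 16.7% of all genes, and 34 were higher at an unadjusted p below 0.05 in place of 6.33%, while limma again called 0. Without Akt-LEC 2 the median was 0.52. Akt-LEC 1 was singled out in part for its high Col1a1, Pdgfra and Acta2, which are members of these lists. Here and in the lists below, higher values without it follow in part from that choice and are description only. The shares of all genes set beside them were not selected in this way. Kept, meaning above Akt-LECs by more than 1 and not more than 1 below MACs, were 23 of 87 members, against 7.77% of all tested genes. The rule asks for no level in MACs, so a gene that RACVECs gained also counts as kept. The median of RACVECs minus MACs over the 87 was -1.10.

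**Figure D3:**
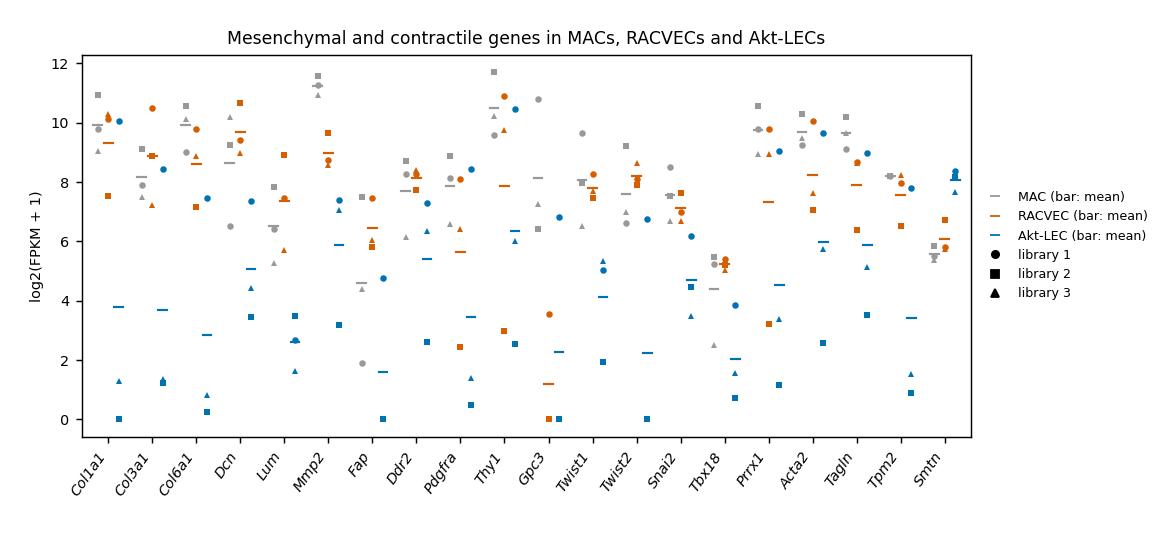
Level of 20 mesenchymal and contractile genes (y axis, log2(FPKM + 1)) in each MAC (grey), RACVEC (orange) and Akt-LEC (blue) library, with symbols for libraries 1 to 3 and bars for group means. The circle of Akt-LEC 1 lies far above Akt-LECs 2 and 3 in Col1a1, Pdgfra, Thy1 and Prrx1, and the square of RACVEC 2 lies far below the other RACVECs in Pdgfra, Thy1 and Prrx1 but among them in Dcn, Lum, Twist1 and Twist2.

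Matrix genes were the mesenchymal list with the largest median, 2.84, and 3.82 without Akt-LEC 1. Their median was 1.67 without RACVEC 1. Of 24 tested, 16 had a log2 difference above 1, 5 lay within 1, 3 lay below -1 and 9 were kept. Limma called 0 higher, with 7 at an unadjusted p below 0.05 and 0 by the ratio criterion. Without Akt-LEC 1, 13 were at such a p and 13 lay above both other Akt-LECs in every RACVEC, in place of 4 above all 3. Col6a1, a chain of collagen VI, had 883, 142 and 470.3 in RACVECs, 177, 0.19 and 0.76 in Akt-LECs and 520.4, 1520.0 and 1117 in MACs (5.76 ± 1.97, adjusted p = 0.218). Col1a1, of the main fibrillar collagen, had 1121, 184 and 1254, 1065, 0 and 1.44 and 881, 1936 and 524 (5.54 ± 2.26, adjusted p = 0.316), and Col3a1 had 1439, 473 and 148, 349.8, 1.33 and 1.57 and 240.2, 559 and 179.5 (5.19 ± 2.04, adjusted p = 0.291). In these 3 collagens Akt-LECs 2 and 3 held nearly none, while Akt-LEC 1 lay within the range of RACVECs. Of the small proteoglycans that bind collagen fibrils, Lum and Dcn were above all Akt-LECs in every RACVEC, whereas Bgn, biglycan, overlapped with 2443, 675 and 2679 against 2282, 104 and 1292 (1.28 ± 1.73). Lum, lumican, had 175, 476 and 51.1 in RACVECs, 5.43, 10.3 and 2.1 in Akt-LECs and 84.3, 229.6 and 37.3 in MACs (4.75 ± 1.22, adjusted p = 0.119), and with a pseudocount of 10 it was called higher. Dcn, decorin, had 688, 1637 and 502, 162, 9.9 and 20.4 and 91.1, 609 and 1167 (4.62 ± 1.56, adjusted p = 0.214). Thbs2, a matricellular protein, had 484, 222 and 189 against 119, 20.2 and 0.27 (4.21 ± 2.08) and the gelatinase Mmp2 had 425, 796 and 378 against 167, 8.04 and 133 (3.10 ± 1.10), the latter below the 2449, 3019 and 1948 of MACs. The members that did not follow included genes that ECs make themselves, such as Sparc (5591, 4368 and 3478 against 4034, 7604 and 9159, -0.58 ± 0.50), and Eln (-1.79), Mfap5 (-1.23), Fbn1 (-1.16), Tnc (-0.12), Fbln2 (-0.04), Col5a2 (0.18) and Thbs1 (0.73).

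Mesenchymal surface genes had a median of 1.54, and of 3.61 without Akt-LEC 1. Their median was 0.26 without Akt-LEC 2 and 0.64 without RACVEC 1. Of 15 tested, 9 lay above 1, 4 were kept and limma called 0, with 2 higher at an unadjusted p below 0.05 and 1 by the ratio criterion. Without Akt-LEC 1 these were 6 at an unadjusted p and 8 above both other Akt-LECs, in place of 3 above all. Fap, the fibroblast activation protein, had 177, 54.6 and 64.7 in RACVECs, 26, 0 and 0 in Akt-LECs and 2.71, 178 and 19.9 in MACs (4.85 ± 1.45, adjusted p = 0.166). Mme, a peptidase of stromal cells, had 81.6, 12.4 and 7.74 against 5.12, 0 and 0 (3.54 ± 1.07, adjusted p = 0.168), and Ddr2, a collagen receptor, had 308, 213 and 339 against 156, 5.06 and 80.8 (2.73 ± 1.90, adjusted p = 0.575). All 3 were higher in every RACVEC than in every Akt-LEC. The PDGF receptors differed between RACVEC libraries instead. Pdgfra was 271, 4.47 and 85.5 and Pdgfrb 169.6, 9.45 and 78.4 in RACVECs, and Thy1, a marker of fibroblasts, was 1926, 6.87 and 868, with RACVEC 2 near Akt-LECs 2 and 3 each time. Several surface genes were lower in every RACVEC than in every MAC. Gpc3 was 1789, 83.5 and 151 in MACs and 10.7, 0 and 0 in RACVECs, Cdh2, N-cadherin, was 177, 61.6 and 634 and 28.8, 1.75 and 6.02, and Cdh11 was 1071, 1323 and 121 and 116, 0.65 and 44.9. Vim (-0.05), which ECs express as well, S100a4 (0.53), Cspg4 (0.57), Cdh2 (-0.53), Ncam1 (-0.70) and Gpc3 (-1.09) did not stand above Akt-LECs by more than 1.

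Mesenchymal transcription factors had a median of 0.66, and of 1.49 without Akt-LEC 1. Their median was 0.54 without Akt-LEC 3. Of 19 tested, 9 lay above 1, 7 within 1 and 3 below -1, and 6 were kept. Limma called 0, with 4 higher and 1 lower at an unadjusted p below 0.05 and 4 higher by the ratio criterion. Without Akt-LEC 1, 5 of 18 tested were higher at an unadjusted p, and 7 in place of 4 lay above the Akt-LECs left in every RACVEC. Twist2 had 276, 236 and 400.5 in RACVECs, 107, 0 and 0 in Akt-LECs and 97.4, 598 and 126 in MACs (5.97 ± 2.09, adjusted p = 0.23). Twist1, its close relative in the mesenchyme of the embryo, had 305, 177 and 205, 32, 2.87 and 39.4 and 808, 251 and 91.7 (3.70 ± 1.90, adjusted p = 0.434). Snai2, a repressor of epithelial junction genes, had 127, 198 and 103 against 71.8, 21.1 and 10.3 (2.40 ± 0.94, adjusted p = 0.291), and Tbx18, a T-box factor of mural and epicardial cells, had 41.9, 36.2 and 32 against 13.6, 0.65 and 1.96 (3.18 ± 1.34, adjusted p = 0.336). These 4 did not overlap with Akt-LECs, varied less between RACVECs than Prrx1 did (888, 8.27 and 489.8), and lay within 1 log2 unit of MACs. Hand2 had 1.5, 36.5 and 33.9 against 3.23, 0 and 0 (3.20 ± 1.99). Among members that did not follow, Meox1 was 0, 0.56 and 0 in RACVECs and 38.8, 225 and 0 in Akt-LECs (-4.16 ± 1.21, adjusted p = 0.161), and Tcf21 was listed at 0 in all RACVECs and at 18.7, 0 and 0 in Akt-LECs. Snai1 (0.20), Zeb1 (0.65), Zeb2 (0.24), Osr1 (0.66), Msx1 (-0.05), Msx2 (0.08), Foxc2 (-0.85) and Foxf2 (-1.13) were the other members at or below 1.

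Contractile genes of smooth muscle showed no common direction, with a median of 0.17 over 14 tested, or 1.15 without Akt-LEC 1. Their median was -0.26 without Akt-LEC 2 and -0.05 without RACVEC 1. Of the 14 genes, 4 lay above 1, 7 within 1 and 3 below -1. None was higher at an unadjusted p below 0.05 with all libraries, against 1 of 12 without Akt-LEC 1, where 4 in place of 0 lay above the other Akt-LECs. Smtn, smoothelin, was called lower with 55.1, 104 and 52.6 in RACVECs and 334, 286 and 200.2 in Akt-LECs (-1.98 ± 0.38, adjusted p = 0.0273), and its call was lost without Akt-LEC 1 (adjusted p = 0.0586), Akt-LEC 2, RACVEC 1 or RACVEC 3. Tpm2, a tropomyosin, had 248, 91.4 and 299 against 221, 0.87 and 1.92 (4.16 ± 2.00, adjusted p = 0.402) and Acta2, smooth muscle actin, had 1057, 132 and 197 against 810.2, 4.97 and 52.7 (2.25 ± 2.18, adjusted p = 0.694). In both, Akt-LEC 1 lay among RACVECs and Akt-LECs 2 and 3 below them. Tagln had 409, 82.4 and 397 against 507, 10.5 and 34.3 (2.02 ± 1.68). Des was 0.64, 0 and 2.24 in RACVECs and 421, 0 and 0 in Akt-LECs, so that only Akt-LEC 1 was above a few FPKM. Secreted regulators had a median of 2.51, and of 4.35 without Akt-LEC 1 or without RACVEC 2. Their median was 1.28 without Akt-LEC 2 and 1.15 without RACVEC 1. Of 15 tested, 10 lay above 1 and 3 were kept, and limma called 0, with 3 higher and 1 lower at an unadjusted p below 0.05 and 0 by the ratio criterion. Without Akt-LEC 1, 9 were higher at an unadjusted p, and 6 in place of 0 lay above both other Akt-LECs in every RACVEC. Fgf7, a growth factor that mesenchyme sends to epithelium, had 691, 191 and 367 in RACVECs, 461, 0.32 and 0 in Akt-LECs and 342, 1053 and 281 in MACs (5.43 ± 2.18, adjusted p = 0.306). Grem1, a BMP antagonist, had 242, 236 and 183 against 1112, 0 and 0 (4.41 ± 2.16, adjusted p = 0.411). Ptn had 1229, 0 and 223 against 4.66, 3.43 and 0 (4.48 ± 2.06) and Aldh1a2, the enzyme of retinoic acid synthesis, 984, 0 and 469 against 129, 0 and 0 (3.93 ± 2.48), both listed at 0 in RACVEC 2. Igf1 was the member on the other side without overlap, 8.67, 0.77 and 0.56 against 11.2, 103 and 13.4 (-3.14 ± 1.41, adjusted p = 0.371), and Bmp4 had 16.9, 0.56 and 111 against 247, 17.4 and 120.0 (-2.49 ± 1.45).

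**Figure D4:**
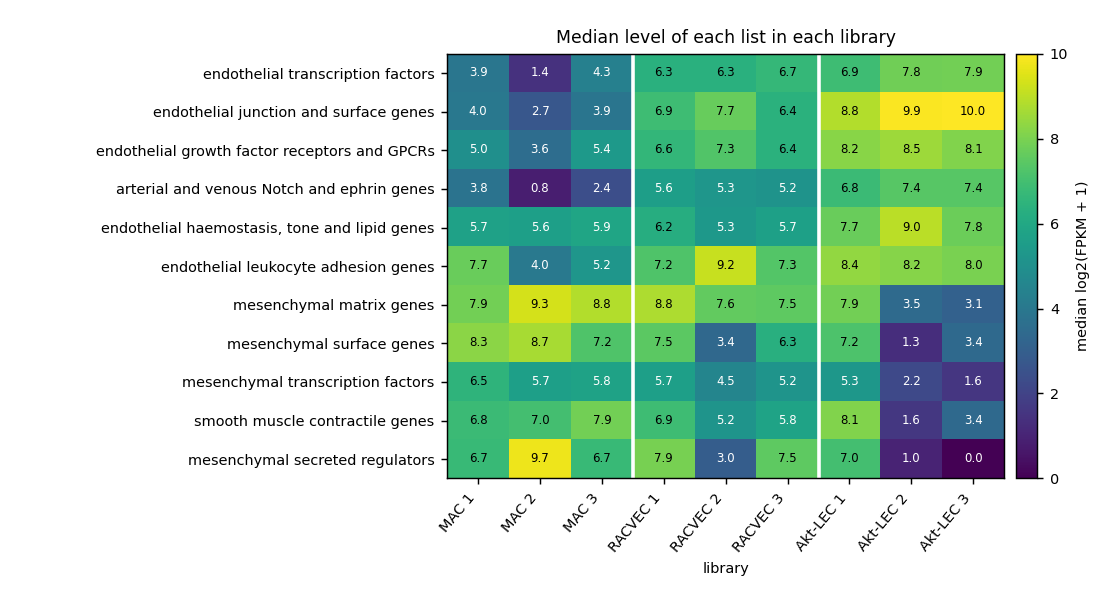
Median log2(FPKM + 1) over the tested members of each list (rows) in each MAC, RACVEC and Akt-LEC library (columns), printed in the cells. Endothelial lists are low in MACs, intermediate in RACVECs and high in Akt-LECs except for haemostasis and leukocyte adhesion, and the mesenchymal lists are low in Akt-LECs 2 and 3 but not in Akt-LEC 1.

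RACVECs lay between MACs and Akt-LECs in most endothelial lists. The median of RACVECs minus MACs was 1.73 over the endothelial and -1.10 over the mesenchymal members tested. Akt-RACVECs and Sox17-RACVECs, made from RACVECs by adding Akt or Sox17, share the Akt-LEC libraries in this comparison and are given only as levels. The library labelled Sox17-RACVEC 2 was listed at 0 for Etv2, which the other 2 had at 458 and 378, and at 387 for Erg, which they had at 4.49 and 0. The median difference from Akt-LECs was -1.53 in RACVECs, 0.10 in Akt-RACVECs and -0.50 in Sox17-RACVECs over the endothelial members, and 1.54, -1.11 and -0.54 over the mesenchymal members. The libraries of a group were uneven. On the log2(FPKM + 1) scale the median mesenchymal level was 4.40, 2.80 and 0.00 in Akt-RACVECs and 6.98, 2.19 and 2.05 in Akt-LECs. Akt-RACVEC 1 thus lay above Akt-LECs 2 and 3. Pecam1 was 3649, 6524 and 4132 in Akt-RACVECs and 586, 5144 and 714 in Sox17-RACVECs, and Dcn was 69.3, 7.93 and 0 and 52.1, 0 and 121. The median level of Sox17-RACVEC 2 was 8.56 over the endothelial and 0.00 over the mesenchymal members, on the log2(FPKM + 1) scale, in place of 7.25 and 7.14 and of 4.34 and 4.07 in the other 2. Without it the median differences of Sox17-RACVECs from Akt-LECs were -0.81 and 0.11, so that the mesenchymal one turned direction.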

How the data were processed

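RNA of 3 RACVEC and 3 Akt-LEC samples was compared, with MACs and 2 RACVEC derivatives given as levels. The authors sequenced paired 51 bp TruSeq reads, mapped them with TopHat to mm9 and deposited FPKM per RefSeq transcript, which Cufflinks had normalized by the upper quartile and corrected for sequence bias. Versions are not given in the sources used here. The depth is unknown, so no counting error is given, and a 0 can stand for a failed estimate.

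Of 27583 transcripts, 26934 were joined to a current symbol and the other 649 kept as they were. Transcripts of a symbol were summed to 22282 genes, 15671 of them above 0 in any of the 6 libraries. Summed FPKM ranged from 1728828 to 2072167 per library. Log2(FPKM + 1) of all 24 libraries in 8 groups was fitted with limma 3.58.1 (R 4.3.3, trended variances, two-sided), which gives 16 residual degrees of freedom and 1 shared estimate of the spread. The procedure was tested on simulated data. The study's ratio criterion was computed on the same files as an alternative, with a log2 ratio of mean FPKM (pseudocount 1) past 1 or -1 and an unadjusted two-sided p below 0.05. Positions are those of GENCODE M1 (mm9).

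Members, lists and named genes were chosen with earlier results of these data known. Named are, for each list, the 2 to 4 members with the largest difference in its direction and those that did not follow, the transduced genes, and the 10 called genes of largest difference to either side among those without overlap between the groups. Genes singled out beyond this rule, such as Bgn, Plvap, Rasip1 and Krt19, were chosen after their values were seen. Col6a3, Col12a1, H19, Cd68, Hbb-b1 and Ly6g are not analysed here, and 1 blood cell marker is not reported here.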

Additional observations from a re-analysis of the deposited data

How the results depend on the processing

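Leaving out 1 library at a time gave between 1 and 20 genes called higher and between 3 and 69 called lower, between 1 and 9 endothelial genes called lower and 0 mesenchymal genes called higher, with medians from -1.71 to -1.27 for the endothelial and from 0.52 (without Akt-LEC 2) to 3.03 (without Akt-LEC 1) for the mesenchymal members. A pseudocount of 0.1 gave 2 higher genes and 3 endothelial calls, and one of 10 gave 1 mesenchymal call, Lum. No filter gave 3 higher genes and a mean FPKM of at least 10 gave 12. A fit of the 6 libraries alone gave 16 lower genes and 2 endothelial calls, with fewer degrees of freedom and a spread taken from these libraries only. The ratio criterion, without adjustment, took 192 as higher and 134 as lower. A fit without the LSEC libraries, added after seeing the data, gave 3 higher and 19 lower genes and 2 endothelial calls. Of the 22 called genes named, 22 were called again after scaling by the median ratio or with a mean FPKM of at least 10, 16 with a pseudocount of 10 or no filter 12 with one of 0.1, 10 without the LSEC libraries and 8 in the fit of 6 libraries, and leaving out 1 library kept between 4 and 15. The medians of both classes moved by less than the spread between RACVEC libraries under the other pseudocounts, filters and scaling. Where no cause is named, the cause was not tested.

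With the replicate block in a fit of the 6 libraries, 0 genes were called higher, 0 lower and 0 endothelial genes lower, the smallest adjusted p was 0.0847, and 647 higher and 585 lower genes past the fold had a p below 0.05 before adjustment. Only 2 degrees of freedom are left there. Deviations from the group means correlated at 0.262, 0.0722 and 0.0295 between libraries 1, 2 and 3 of the groups, and the libraries share only a number, since RACVEC 2 correlated better with Akt-LEC 3 (0.221) than with Akt-LEC 2, and RACVEC 3 better with Akt-LEC 1 (0.0356).

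Uncalled members with a small difference or a wide spread changed sign with 1 library left out, their log2 differences then ranging from -0.78 to 0.21 for Adgrf5, -2.36 to 1.00 for Apln, -0.07 to 2.15 for Bgn, -0.41 to 0.20 for Bmpr2, -1.33 to 0.00 for Cd34, -1.54 to 1.67 for Cd36, -1.03 to 0.85 for Cd93, -2.04 to 1.07 for Cdh2, -0.52 to 0.73 for Col5a2, -0.32 to 0.31 for Fbln2, -0.59 to 0.03 for Fli1, -1.80 to 0.10 for Foxc2, -2.28 to 0.85 for Foxf2, -0.06 to 0.39 for Foxo1, -2.27 to 1.18 for Gpc3, -0.93 to 0.31 for Klf2, -0.20 to 1.64 for Klf4, -0.83 to 0.93 for Msx1, -0.44 to 0.24 for Msx2, -1.21 to 0.15 for Ncam1, -0.72 to 0.00 for Nr2f2, -0.20 to 0.56 for Nrp1, -1.26 to 0.08 for Nrp2, -0.90 to 1.58 for Osr1, -1.20 to 3.13 for Pdpn, -0.16 to 0.48 for Snai1, -0.32 to 0.44 for Sox7, -0.40 to 0.15 for Thbd, -1.04 to 2.22 for Thbs1, -1.90 to 1.25 for Tnc, -0.63 to 0.61 for Unc5b, -0.55 to 0.70 for Vcam1, -0.20 to 0.21 for Vim and -0.57 to 0.96 for Zeb2. The median of mesenchymal genes in Sox17-RACVECs was 0.11 without Sox17-RACVEC 2, a setting chosen after seeing the data, in place of -0.54. With a pseudocount of 10 the difference was 0.05 for Msx1 and -0.02 for Msx2. The depth is unknown, and at an FPKM near 0 no limit of detection can be given.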

Other observations

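Hox genes, which record the position along the body axis from which a cell came, did not share 1 direction. Of 31 tested, limma called 0 in either direction, 5 were higher and 14 lower at an unadjusted p below 0.05 past the fold, and the ratio criterion took 3 as higher and 3 as lower. Of all tested genes, 4.04% were higher and 4.51% lower at such an unadjusted p. Hoxa11 was 121, 93.2 and 163 in RACVECs, 92.9, 0 and 30.9 in MACs and listed at 0, 0 and 0 in Akt-LECs (adjusted p = 0.117), Hoxa10 was 81.7, 89.6 and 117 against 0.93, 0 and 1.5 (5.83 ± 1.40, adjusted p = 0.0919) and Hoxa9 was 22.1, 45.1 and 41.9 against 1.26, 2.76 and 3.28 (3.43 ± 0.89, adjusted p = 0.125). Anterior members of the same cluster lay on the other side, with Hoxa5 at 16.8, 17.4 and 14.3 against 159, 39.4 and 101 (-2.34 ± 0.68, adjusted p = 0.161) and Hoxa4 at 2.85, 2.13 and 7.1 against 31.1, 9.76 and 21.9 (-2.11 ± 0.57, adjusted p = 0.133). Hoxb genes were low or listed at 0 in RACVECs 1 and 3 and present in RACVEC 2, as in Hoxb3 with 1.38, 25.9 and 0 against 56, 40.3 and 33.7 and 1.19, 2.38 and 50 in MACs. Hoxc10 was above 0 in RACVEC 2 alone, at 0, 189 and 0, and Hoxd13 in RACVEC 1 alone, at 135, 0 and 0.

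Genes of embryonic growth had a median log2 difference of 1.01 over 11 tested, with 0 called by limma, 4 higher at an unadjusted p below 0.05 and 1 by the ratio criterion. Of all tested genes, 4.04% were higher at such an unadjusted p. Hmga2, a chromatin protein of embryonic cells, was 993, 523 and 1478 in RACVECs and 421, 23 and 198 in Akt-LECs (2.86 ± 1.22, adjusted p = 0.342) and Igf2bp1, an RNA-binding protein of the embryo, was 19.1, 24.6 and 29.1 against 7.94, 0 and 0 (3.59 ± 1.24, adjusted p = 0.227), both without overlap. Igf2 was 7979.6, 4.1 and 2813 in RACVECs and 36.2, 145 and 6.68 in Akt-LECs, so that RACVEC 2 lay below all Akt-LECs and the other RACVECs above them. Cell cycle genes had a median of -1.16 over 14 tested, 10 of them below -1 and 7 without overlap, with 0 called by limma, 2 lower at an unadjusted p below 0.05 and 1 by the ratio criterion. Of all tested genes, 10.1% lay below -1, 8.31% were lower without overlap and 4.51% were lower at such an unadjusted p. Mki67 was 23.6, 83 and 44 against 175, 102 and 115 (-1.50 ± 0.62, adjusted p = 0.325). Interferon-induced genes had a median of 0.84, and of -0.26 without Akt-LEC 1. Slfn4, of the Schlafen family, was 41, 264 and 1372 in RACVECs and 1.6, 4.36 and 2.21 in Akt-LECs (6.13 ± 1.46, adjusted p = 0.0893). Genes of MHC class I presentation had a median of 0.17 with all 8 within 1, and 0 called by limma, 0 at an unadjusted p below 0.05 and 0 by the ratio criterion.

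Sex-linked genes differed between libraries of the same group. Xist, the RNA of the inactive X chromosome, was 174, 220.4 and 191 in RACVECs and 0, 207 and 89.2 in Akt-LECs, and the Y-linked Eif2s3y was 73.6, 0 and 29.1 and 159, 0 and 0, so that RACVECs 1 and 3 held both, RACVEC 2 and Akt-LECs 2 and 3 held Xist alone, and Akt-LEC 1 held the Y-linked gene alone.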
